A study of Equus caballus with 28 samples.

Results

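The mesenchymal family of miR-199 and miR-214 was described here in the reproductive tract of the mare and in the early horse conceptus, as 5 mature miRNAs chosen by name among the 844 known and predicted miRNAs counted in the series. They were eca-miR-199a-3p, eca-miR-199a-5p, eca-miR-199b-3p, eca-miR-199b-5p and eca-miR-214. The rule used their names and no measured value. A miRNA precursor is cut from a hairpin, and the 5p and 3p names stand for the mature strands of its arms, each of which can guide silencing of its own set of mRNAs. The genes of miR-199 lie in introns of dynamin genes, that of miR-199a sits beside miR-214 in a single antisense transcript, and the family is known from fibroblasts, smooth muscle and other cells of mesenchymal origin. In the RefSeq annotation of the horse (assembly TB-T2T, not the build of the study), MIR199A and MIR214 were on chromosome 5 inside DNM3 and were each other's nearest miRNA gene, whereas MIR199B was on chromosome 25 inside DNM1.

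Small RNA of 28 samples was sequenced, all taken 13 days after ovulation, when the equine embryo signals its presence to the mare. Endometrial biopsies and uterine fluid (UF) came from 5 Warmblood mares in a pregnant cycle and from 4 of them in a cyclic control cycle, and the embryonic tissue, freed of its capsule, and the yolk sac (YS) fluid came from the 5 embryos. Replicate numbers of the labels were read as mares. Every mare received hCG before ovulation and was then inseminated with semen of 1 stallion or left unbred, and no ages were used here. UF was absorbed with a tampon, so it sampled the uterine lumen, and each biopsy held several cell types. The kit for RNA from UF and YS fluid was not that for the tissues, so an effect of the kit and one of the fluid cannot be told apart. In these bulk samples, fewer cells of a type and less RNA per cell cannot be told apart either.

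Depth differed between the groups. Totals ran from 280065 to 590593 reads in pregnant endometrium, from 61836 to 371630 in cyclic endometrium, from 79173 to 152860 in pregnant UF and from 62087 to 226308 in cyclic UF. They ran from 28204 to 44768 in embryos and from 4352 to 14531 in YS fluid. A count of 3 reads, used as a floor, stood for 5.08 to 10.7 CPM (counts scaled to 1000000 reads per library) in pregnant endometrium and for 206 to 689 CPM in YS fluid, and it covers counting error only. The labels fitted the marker miRNAs: the 8 pluripotent or early embryo miRNAs (miR-302, miR-367, miR-371 and miR-372) summed to 12020 to 65295 CPM in embryos and to 34891 to 264130 CPM in YS fluid, against 0 to 5.92 CPM in pregnant endometrium.

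The 3p strands of miR-199a and miR-199b were 1 measurement under different names. Their counts were identical in 19 of 28 libraries, and eca-miR-199a-3p was larger by at most 11 reads in the other 9. Over all libraries they held 24955 and 24910 reads, a difference of 0.180%. Values below are given for eca-miR-199a-3p, and the 5 members therefore stand for 4 separate counts. The 5p strands were counted apart, and eca-miR-199b-5p exceeded eca-miR-199a-5p in 9 of 9 endometrial libraries.

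Endometrium held the family at its highest level, and eca-miR-199a-3p made up most of it. In cyclic endometrium of mares 1 to 4, eca-miR-199a-3p reached 8086, 11496, 8675 and 6807 CPM, and in pregnant endometrium of mares 1 to 5 it reached 8904, 5181, 8400, 6752 and 10740 CPM. The means were 8766 CPM ± 1980 (SD, n = 4) and 7995 CPM ± 2121 (SD, n = 5), and the groups overlapped. By mean level it was number 20 of 306 known miRNAs with a read in cyclic endometrium and number 21 of 308 in pregnant endometrium. With eca-miR-199b-3p not added, the family took 0.955% of the reads in cyclic and 0.870% in pregnant endometrium.

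Outside the endometrium eca-miR-199a-3p was lower and more variable. In cyclic UF of mares 1 to 4 it stood at 488, 1224, 177 and 457 CPM (586 CPM ± 447, SD, n = 4), and in pregnant UF of mares 1 to 5 at 89.1, 1690, 445, 1446 and 2400 CPM (1214 CPM ± 941, SD, n = 5). The coefficient of variation was 76.3% and 77.5% in UF, against 22.6% and 26.5% in endometrium of cyclic and pregnant mares. These UF libraries held 11 to 277 and 12 to 202 reads of it, against 500 to 3461 and 1751 to 4961 in endometrium. Fewer reads bring more counting error, whose part in the spread was not tested. In YS fluid the 5 libraries held 527, 138, 230, 1379 and 482 CPM (551 CPM ± 491, SD, n = 5), which were 2 to 7 reads each. In embryos they held 141.8, 89.3, 331, 208 and 338 CPM (222 CPM ± 111, SD, n = 5), from 4 to 14 reads each. In order of mean level the groups ran from cyclic endometrium through pregnant endometrium, pregnant UF, cyclic UF and YS fluid to embryo. The ranges of neighbours in this order overlapped except between pregnant endometrium and pregnant UF.

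**Figure D1:**
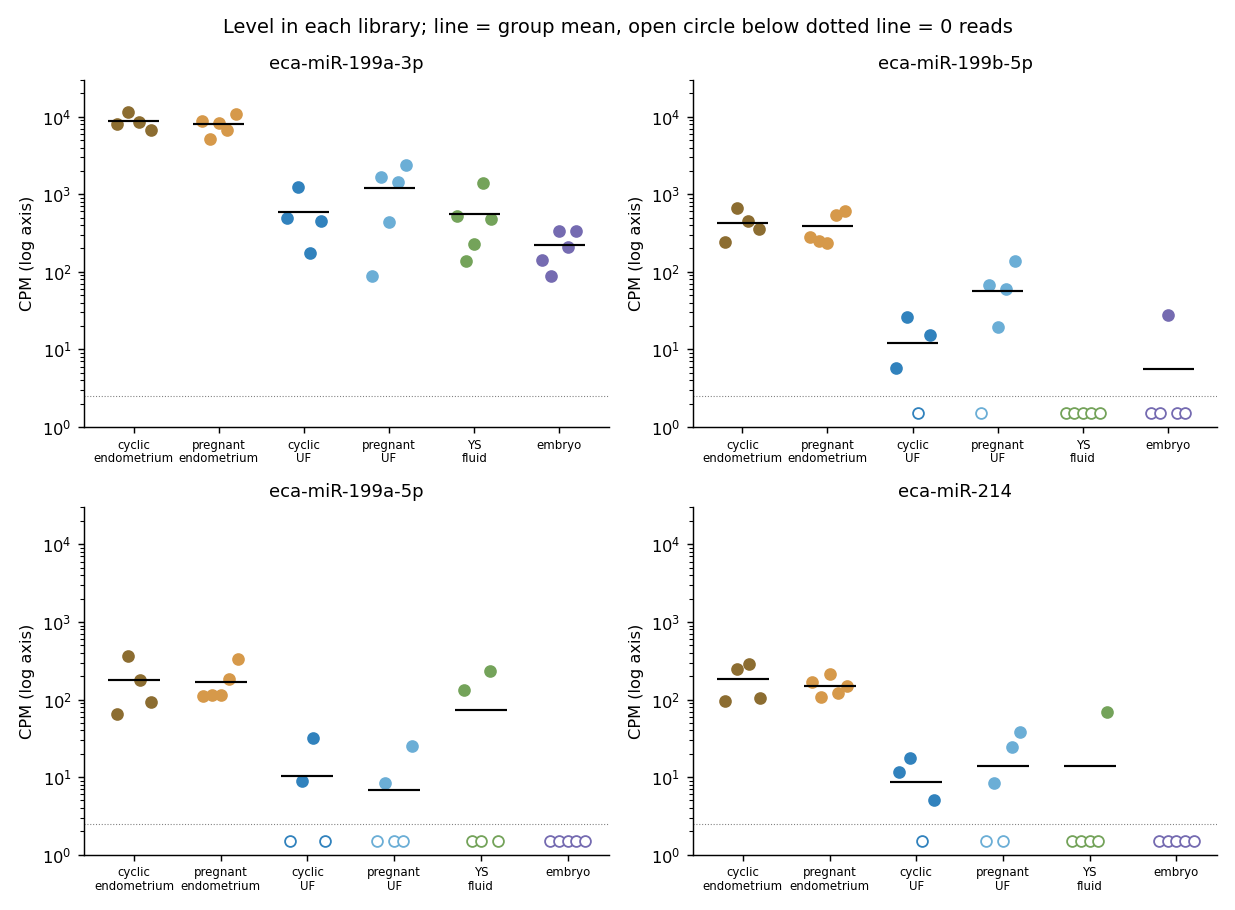
Level of eca-miR-199a-3p, eca-miR-199b-5p, eca-miR-199a-5p and eca-miR-214 in each of the 28 libraries (vertical log axis, CPM) by sample group, where each point is a library, the line is the group mean and open circles below the dotted line are libraries with 0 reads. For eca-miR-199a-3p every endometrial library, at 5181 CPM or more, lies above every other library, the next being pregnant UF at 2400 CPM, and eca-miR-199a-5p and eca-miR-214 have no read in any embryo.

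The 5p strands, which carry another seed than the 3p strands and so pair with other targets, were scarcer. eca-miR-199b-5p stood at 243, 658, 452 and 359 CPM in cyclic endometrium and at 282, 252, 237, 546 and 608 CPM in pregnant endometrium. In pregnant UF it was counted with 0, 8, 3, 5 and 11 reads (57.2 CPM ± 53.5, SD, n = 5) and in cyclic UF with 1, 6, 0 and 3 reads (11.9 CPM ± 11.6, SD, n = 4). A single read fell on it in the 5 embryos and none in the 5 YS fluids. By these counts endometrium lay above the other groups without overlap, although the floor of 3 reads in YS fluid reaches into its range, and pregnant and cyclic UF overlapped.

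eca-miR-199a-5p reached 64.7, 369, 178 and 93.4 CPM in cyclic endometrium and 110, 115, 113, 182 and 330 CPM in pregnant endometrium. Outside the endometrium it was counted with 4 reads in cyclic UF, 3 in pregnant UF, 2 in YS fluid and 0 in embryos, summed over each group. Those 2 reads were in the YS fluids of mares 1 and 4, where a single read amounts to 132 and 230 CPM, inside the range of the endometrium.

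eca-miR-214, the partner of miR-199a on its transcript, stood at 97.0, 246, 288 and 104 CPM in cyclic endometrium (184 CPM ± 97.6, SD, n = 4) and at 169, 107, 212, 121 and 149 CPM in pregnant endometrium (151 CPM ± 41.4, SD, n = 5). These levels came from 216 and 296 reads. It was counted with 7 reads in cyclic UF, 6 in pregnant UF, 1 in YS fluid and 0 in embryos. Endometrium lay above UF and embryos without overlap. In the YS fluids of mares 1 and 4, with 0 reads, a single read would amount to 132 and 230 CPM, so these cannot be placed below the endometrium.

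The family did not pass the test between pregnant and cyclic endometrium, the comparison that asks what the presence of the embryo changes in the uterine wall. In edgeR's quasi-likelihood test with the mare as a block, 0 of 5 members passed the thresholds (a change of 2-fold or more with a Benjamini-Hochberg FDR up to 0.05), where 3.37% of all 386 miRNAs tested did. The unadjusted p was under 0.05 for 0 of the 5, and DESeq2 and edgeR's likelihood ratio test called 0 as well. For eca-miR-199a-3p the log2 fold change was -0.031 (SE 0.21, FDR 0.977), with a 95% interval of -0.45 to 0.39. In this fit the interval leaves out a mean change of 2-fold or more in either direction. It does not give the spread of single mares, since mare 2 held 11496 CPM in the cyclic and 5181 CPM in the pregnant cycle. With 28 libraries in 1 fit, without the block, the log2 fold change was 0.42 (SE 0.56). In CPM, pregnant was the lower in 3 of 4 mares, by little in mare 3 (8400 against 8675 CPM) and mare 4 (6752 against 6807 CPM). Counts of mares here and for UF use CPM by library totals, whereas the fits use TMM. In the fit with the block, the log2 fold change of eca-miR-199b-5p was -0.18 (SE 0.34, interval -0.85 to 0.48). That of eca-miR-199a-5p was -0.065 (interval -0.85 to 0.72) and that of eca-miR-214 -0.028 (interval -0.79 to 0.73). For each of these 3, pregnant was the higher in 2 of 4 mares and the lower in 2.

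Between pregnant and cyclic UF, which receives what the uterus and the embryo release, 0 of 5 members passed either, where 4.92% of the 305 miRNAs tested did. The unadjusted p was under 0.05 for 0 of the 5, and DESeq2 and the likelihood ratio test called 0. eca-miR-199a-3p was higher in pregnant UF in 3 of 4 mares. Its log2 fold change was 0.47 (SE 0.47, FDR 0.831), with a 95% interval of -0.46 to 1.39. eca-miR-199b-5p, with 27 reads in pregnant and 10 in cyclic UF, was also higher in 3 of 4 mares. Its log2 fold change was 1.54 (SE 0.83, FDR 0.410 in edgeR's quasi-likelihood test), with an interval of -0.093 to 3.17. Both intervals reach past a 2-fold increase, so a change of that size could not be told from none in these libraries. eca-miR-199a-5p and eca-miR-214 rested on 7 and 13 reads in all and had intervals of -5.47 to 2.02 and -2.74 to 2.49. The difference between the pregnancy effect in UF and that in endometrium, tested as an interaction, passed for 0 of 5 members. It was 0.40 for eca-miR-199a-3p (SE 0.55, FDR 0.987) and 1.65 for eca-miR-199b-5p (SE 0.83, FDR 0.783) on the log2 scale, and the unadjusted p was under 0.05 for 0 of the 5. The size of this difference turned on single mares. For eca-miR-199a-3p it was 1.60 without mare 1 (SE 0.53, FDR 0.0525) and 0.12 and 0.092 without mares 2 and 4. For eca-miR-199b-5p it ranged from 1.41 to 2.41, the latter without mare 1 (FDR 0.152).

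UF held less of the family than the endometrium that surrounds it. In pregnant mares 5 of 5 members were lower in UF, where 20.1% of the 359 miRNAs tested were called lower. In cyclic mares 5 of 5 were lower as well, where 18.9% of 328 were. In both comparisons the libraries of UF and endometrium did not overlap for any of the 5 members. Of all miRNAs tested, 18.1% in pregnant and 18.6% in cyclic mares lay lower in every UF than in every endometrium. In each cycle 3 of the 5 members, eca-miR-199a-5p, eca-miR-199b-5p and eca-miR-214, did not pass the filter on low values within UF and were tested because of the endometrium, so these counts are a description. For eca-miR-199a-3p the means differed by 6.59-fold in CPM in pregnant mares (log2 fold change -2.91, SE 0.59, FDR 0.00135 in edgeR's quasi-likelihood test) and by 14.9-fold in cyclic mares (log2 fold change -4.14, SE 0.48, FDR 1.2e-05). For eca-miR-199b-5p the log2 fold changes were -2.99 (SE 0.62) and -5.15 (SE 0.72), and the former lost its call in edgeR's likelihood ratio test (-2.93, FDR 0.102). For eca-miR-214 they were -3.84 (SE 0.69) and -4.44 (SE 0.77). eca-miR-199a-5p, with 3 reads in pregnant UF where 89.7 would be counted at the level of the endometrium, was 29.9-fold lower, with a counting interval of 10.1 to 146. In cyclic UF it had 4 reads where 134 would be counted.

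The step from endometrium to UF varied between mares. Within the pregnant cycle, the endometrium of mares 2, 4 and 5 held 3.06, 4.67 and 4.48 times as much eca-miR-199a-3p, in CPM, as their UF. In mares 3 and 1 it held 18.9 and 100.0 times as much. Within the cyclic cycle the ratios of mares 1 to 4 were 16.6, 9.39, 49.0 and 14.9. Endometrium was thus the higher in 9 of 9 pairs, and the ratios of the pregnant and cyclic cycle overlapped. The pregnant UF of mare 1, with 12 reads of eca-miR-199a-3p and none of the 5p strands or eca-miR-214, was also the lowest pregnant UF for eca-miR-143, a smooth muscle and stromal miRNA, at 186 CPM, and for the endothelial eca-miR-126 strands, which summed to 7.42 CPM. Their part in the result was not tested. Without mare 1 the difference between pregnant UF and endometrium was -2.55 on the log2 scale for eca-miR-199a-3p and passed the test (FDR 0.000436).

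**Figure D2:**
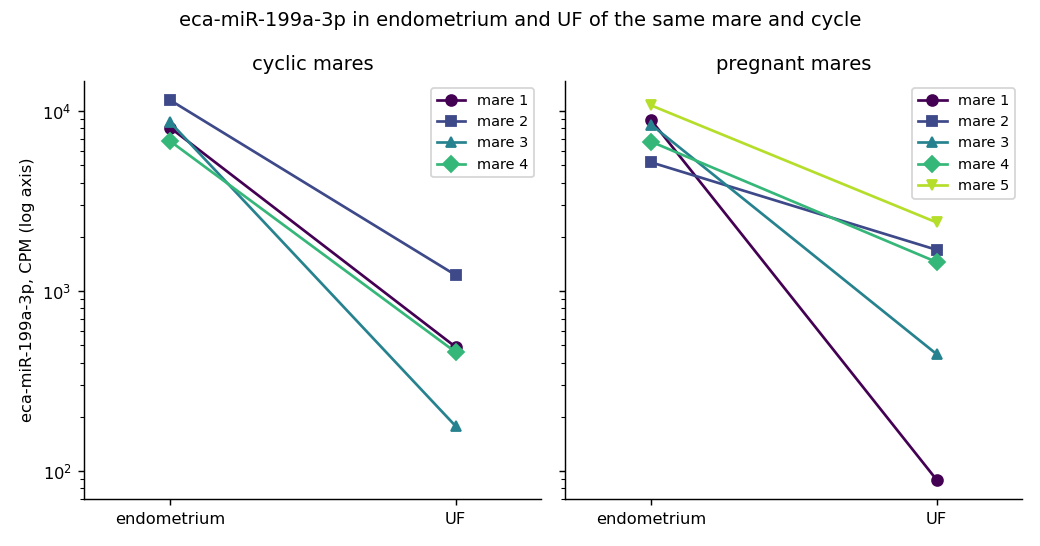
Level of eca-miR-199a-3p (vertical log axis, CPM) in endometrium and UF joined by mare, for the cyclic cycle on the left and the pregnant cycle on the right. The line falls from endometrium to UF in 9 of 9 pairs, by 3.06 times in pregnant mare 2 and by 100.0 times in pregnant mare 1.

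The embryo held little of the family. Compared with pregnant endometrium, a tissue extracted with the same kit, 5 of 5 members were lower in embryos and did not overlap, where 42.6% of the 359 miRNAs tested were called lower and 29.0% lay lower in every embryo than in every endometrium. As in UF, 3 of the 5 did not pass the filter within embryos. For eca-miR-199a-3p the means differed by 36.1-fold in CPM, and the fitted log2 fold change was -6.51 (SE 0.43, FDR 2.1e-07 in edgeR's quasi-likelihood test). Had the embryos held eca-miR-214 at the pooled level of pregnant endometrium, 28.9 reads would have been counted in place of 0, so it was at least 9.62-fold lower. eca-miR-199a-5p, with 0 reads where 28.3 would be counted, was at least 9.42-fold lower. Both bounds take 3 reads over the group as the floor. eca-miR-199b-5p had 1 read where 63.4 would be counted, a ratio of 63.4-fold with a counting interval of 11.3 to 2507.

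YS fluid, which fills the yolk sac of the same embryos, was low in the family too. All 5 members were called lower than in pregnant endometrium, where 35.2% of the 341 miRNAs tested were. Of the 5, 3 did not pass the filter within YS fluid. By their counts 4 of 5 did not overlap, where 22.9% of those tested lay lower in every YS fluid, but for eca-miR-214 and eca-miR-199b-5p this rests on libraries with 0 reads. For eca-miR-199a-3p the means differed by 14.5-fold in CPM, and the fitted log2 fold change was -6.14 (SE 0.60, FDR 6.3e-07). eca-miR-199b-5p, with 0 reads where 19.1 would be counted, was at least 6.36-fold lower. eca-miR-214 had 1 read where 8.68 would be counted, a ratio of 8.68-fold with a counting interval of 1.55 to 344. eca-miR-199a-5p overlapped, with 2 reads where 8.51 would be counted, a ratio of 4.25-fold with a counting interval of 1.17 to 35.3. Its call in the quasi-likelihood test (log2 fold change -4.05, FDR 0.00133) was lost when library totals alone scaled the counts (-2.05, FDR 0.0912).

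Between the conceptus and the UF around it only the more abundant members had enough reads to be tested. Of the 3 tested between embryo and pregnant UF, 3 were lower in embryos, where 38.7% of the 310 miRNAs tested were called lower. Of these 3, 2 were the names of the 3p strand. eca-miR-199b-5p did not pass the filter within embryos and was tested because of UF, so its call is a description. For eca-miR-199a-3p the log2 fold change was -3.93 (SE 0.77, FDR 0.000817) and the means differed by 5.48-fold in CPM, but the ranges overlapped, since the pregnant UF of mare 1 at 89.1 CPM lay just below the lowest embryo at 89.3 CPM. For eca-miR-199b-5p, with 1 read in embryos where 8.51 would be counted, the log2 fold change was -4.07 (SE 1.109, FDR 0.00673 in edgeR's quasi-likelihood test). This call was lost without mare 2 (FDR 0.0563), without mare 5 (FDR 0.0656) and with library totals alone (FDR 0.0639).

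Between YS fluid and pregnant UF, both fluids, the 2 names of the 3p strand were tested and both were lower in YS fluid, where 36.1% of the 277 miRNAs tested were called lower. The log2 fold change of eca-miR-199a-3p was -3.13 (SE 0.75, FDR 0.00221 in edgeR's quasi-likelihood test), but its ranges overlapped and the means differed by 2.20-fold in CPM. With library totals alone it was -1.33 (FDR 0.156), and 0 of the 2 were called. Between embryo and YS fluid 0 of the 2 were called, where 35.1% of the 259 miRNAs tested were called in either direction. The log2 fold change of eca-miR-199a-3p was -0.52 (SE 0.61, FDR 0.526), with a 95% interval of -1.85 to 0.81. Its unadjusted p was 0.412, and DESeq2 and the likelihood ratio test called 0.

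**Figure D3:**
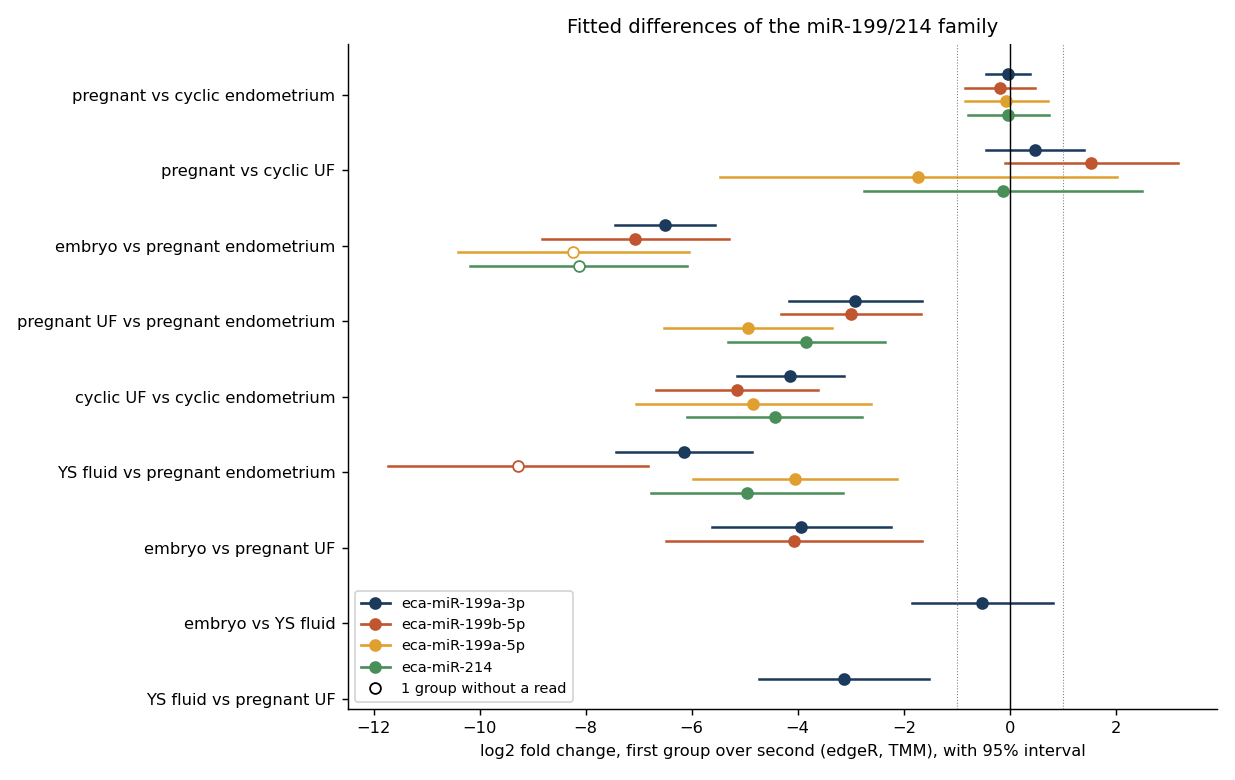
Fitted log2 fold change (horizontal axis, first group over second, edgeR with TMM) with its 95% interval for 4 members in the 9 comparisons, where open circles mark a group without a read, whose fitted value is no bound, and dotted lines mark a fold change of 2. The pregnant and cyclic intervals of all 4 members reach across 0, and those of UF, YS fluid and embryo against endometrium lie below it.

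The size of these differences depended on the scaling between libraries. TMM factors ran from 0.556 to 0.759 in pregnant endometrium and from 1.47 to 1.85 in embryos of the same fit. Scaling by library totals alone moved the median of all miRNAs up by 1.33 on the log2 scale between embryo and pregnant endometrium and by 2.00 between YS fluid and pregnant endometrium. On that scale eca-miR-199a-3p was -5.16 (FDR 2.1e-06) in embryos and -4.10 (FDR 5.1e-06) in YS fluid. With TMM the median of all miRNAs tested was -1.03 and -0.84, and that of the members -7.06 and -6.14. Between UF and endometrium the same change moved the median by 0.12 in pregnant and by 0.16 in cyclic mares, and eca-miR-199a-3p was -2.73 and -3.88. Between embryo and pregnant UF it moved the median by 1.41, between YS fluid and pregnant UF by 1.68 and between embryo and YS fluid by -0.61, and eca-miR-199a-3p was -2.44, -1.33 and -1.18. Between pregnant and cyclic samples the median moved by -0.23 in endometrium and -0.10 in UF.

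Calls over all miRNAs turned with this choice. In embryo against pregnant endometrium 103 miRNAs were higher and 153 lower with TMM, and 140 higher and 94 lower with library totals alone. In YS fluid against pregnant endometrium the split was 61 to 120 with TMM, 78 to 87 with RLE size factors and 119 to 59 with totals. In embryo against pregnant UF it was 92 to 120, 116 to 100 and 146 to 85, and in YS fluid against pregnant UF it was 65 to 100, 87 to 78 and 114 to 52. In embryo against YS fluid it was 57 to 34 with TMM and 40 to 55 with totals.

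Within the endometrium the proportions of the members to each other overlapped between the cycles. A ratio of counts within a library does not depend on the scaling between libraries. Per 100 reads of eca-miR-199a-3p, pregnant endometrium held 1.39 to 2.52 reads of eca-miR-214 (mean 1.93 ± 0.41, SD, n = 5) and cyclic endometrium 1.2 to 3.32 (mean 2.05 ± 0.93, SD, n = 4). Of the summed 5p strands it held 4.17 to 10.8 reads in pregnant endometrium (mean 7.04 ± 2.83, SD, n = 5) and 3.80 to 8.93 in cyclic endometrium (mean 6.66 ± 2.14, SD, n = 4). The share of eca-miR-199b-5p among the 5p reads was 69.1% in pregnant and 69.9% in cyclic endometrium, pooled over libraries. The groups overlapped in each of these measures.

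In UF these proportions rested on few reads. Pregnant UF held 6 reads of eca-miR-214 where its own 3p reads, at the proportion of pregnant endometrium, would bring 11.9, and cyclic UF held 7 where 9.27 would be brought. Of the 5p strands, pregnant UF held 30 reads where 37.7 would be brought and cyclic UF 14 where 29.4 would be. In pregnant UF 27 of the 30 5p reads, or 90.0%, were of eca-miR-199b-5p. Embryos and YS fluid had too few 3p reads to bring more than 0.802 and 0.441 reads of eca-miR-214, so its absence from the embryos says nothing of its proportion there.

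None of the 3 count ratios (eca-miR-199b-5p over eca-miR-199a-5p, 3p over 5p, eca-miR-214 over 3p) differed between groups after correction. In these ratios 3p was the sum of eca-miR-199a-3p and eca-miR-199b-3p, which counts nearly the same reads under each name. Of the 27 two-sided exact permutation or sign-flip tests over the 9 comparisons 0 passed, the smallest adjusted p being 0.0536. With 1 read added in place of 0.5, 6 passed (adjusted p = 0.0357 in each exact permutation test), each with YS fluid or embryo as a group. With 0.5 read added, the unadjusted exact permutation p was under 0.05 in 10 of the 27 tests. Each had embryo or YS fluid as a group, where most counts were 0 and the added 0.5 read sets the value. With 5 against 5 libraries the smallest p these tests can give is 0.00794, with 4 against 4 it is 0.0286, and with 4 paired mares it is 0.125. A pregnancy difference in a ratio could therefore not reach 0.05. Between pregnant UF and pregnant endometrium the log2 ratio of eca-miR-199b-5p over eca-miR-199a-5p differed by 1.00 (exact permutation p = 0.135) and that of eca-miR-214 over 3p by -0.32 (exact permutation p = 0.524).

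**Figure D4:**
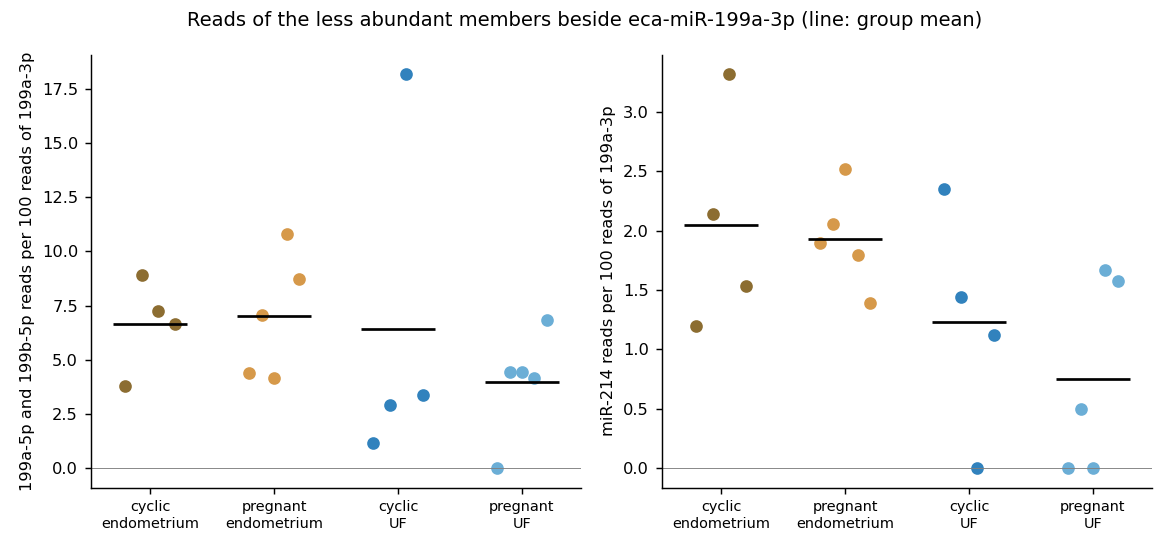
Reads of the summed 5p strands (left) and of eca-miR-214 (right) per 100 reads of eca-miR-199a-3p in each endometrial and UF library, with the group mean as a line. The endometrial groups overlap, at 1.39 to 2.52 in pregnant and 1.2 to 3.32 in cyclic mares for eca-miR-214.

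The stromal and smooth muscle pair eca-miR-143 and eca-miR-145, taken as markers of the cells in which the family is known, was lower in the same comparisons. Both were called lower in embryos and in YS fluid than in pregnant endometrium. eca-miR-145 did not pass the filter within embryos, YS fluid or UF and was tested because of the endometrium, so its calls are a description. The log2 fold change of eca-miR-143 was -6.96 (SE 0.64) in embryos and -5.45 (SE 0.78) in YS fluid. eca-miR-145 had 1 read in embryos where 14.5 would be counted at the level of pregnant endometrium, and 0 reads in YS fluid where 4.37 would be. Both were lower in cyclic UF than in cyclic endometrium (-4.27 and -3.79). In pregnant UF eca-miR-143 was lower than in endometrium (-3.35, SE 0.66) and eca-miR-145 was at -2.13 (FDR 0.0541). Neither passed between pregnant and cyclic endometrium (-0.24 and -0.26) or UF (0.38 and 0.060), and the unadjusted p was under 0.05 for 0 of them.

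Some markers of other cell types were lower in the same comparisons, to unequal extents. The summed epithelial list was not lower in UF or embryos. The part of these cell types in the results was not tested. Both strands of eca-miR-126 (endothelial) summed to 1598 to 4816 CPM in pregnant endometrium, 7.42 to 316 in pregnant UF, 134 to 346 in embryos and 138 to 460 in YS fluid. They were called lower in 2 of 2 cases in embryo, YS fluid and UF against endometrium. The 4 erythroid miRNAs (of miR-451, miR-144 and miR-486) summed to 2674 to 11285 CPM in pregnant endometrium and 519 to 3246 in pregnant UF, and to 112 to 314 in embryos and 230 to 1379 in YS fluid. Of these, 4 of 4 were called lower in embryos and in YS fluid, 3 of 4 in pregnant UF and 3 of 3 tested in cyclic UF. The 5 leukocyte miRNAs (of miR-142, miR-223, miR-150 and miR-155) summed to 2816 to 3474 CPM in pregnant endometrium and 1714 to 2791 in pregnant UF. Of the leukocyte list 1 of 5 was called lower in pregnant UF and 0 of 5 in cyclic UF, against 5 of 5 in embryos and in YS fluid, where 4 of the 5 had no read. Listed miRNAs with 0 reads in embryos or YS fluid were tested because of the endometrium, so those calls are a description. Of all miRNAs tested against endometrium, 42.6% were called lower in embryos, 35.2% in YS fluid, 20.1% in pregnant UF and 18.9% in cyclic UF. The 6 epithelial miRNAs (miR-141, miR-200a, miR-200b, miR-200c, miR-429 and miR-205) summed to 49244 to 72098 CPM in pregnant endometrium, 65482 to 90675 in pregnant UF, 93710 to 131812 in embryos and 48703 to 117864 in YS fluid. In embryos 51198 to 89436 CPM of this sum were eca-miR-200b, against 14475 to 21238 CPM in pregnant endometrium. eca-miR-200a (20457 to 27125 against 8143 to 17713) and eca-miR-429 (5673 to 7690 against 591 to 1925) were also higher in every embryo. eca-miR-200c was lower in every embryo (6353 to 15246 against 20487 to 25805), and eca-miR-141 and eca-miR-205 overlapped. These values are CPM without TMM, whereas the calls use TMM. Against endometrium 1 of the 6 was called higher and 3 lower in embryos, 0 higher and 3 lower in YS fluid, 1 higher in pregnant UF and 2 higher in cyclic UF, with none lower in UF of either cycle. Over all miRNAs tested, 103 of 359 were called higher in embryos and 61 of 341 in YS fluid. In UF it was 49 of 359 in pregnant and 39 of 328 in cyclic mares. The list is too small to set its counts apart from these.

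The miRNAs whose levels were most like eca-miR-199a-3p over the 28 libraries, by Pearson correlation of log2 CPM among 148 known miRNAs with a mean of at least 100 CPM, were eca-miR-143 (r = 0.979), eca-miR-196b (0.963), eca-miR-195 (0.947), the erythroid eca-miR-451 (0.932) and eca-miR-28-5p (0.907). For eca-miR-214 they were eca-miR-195 (0.954), eca-miR-126-3p (0.937), eca-miR-196b (0.926), eca-miR-126-5p (0.925) and eca-miR-379 (0.915). eca-miR-199a-3p and eca-miR-214 had r = 0.924 with each other. These values describe libraries that share mares, depth and extraction kit by group, and they rest on CPM scaled by TMM. In CPM without that scaling eca-miR-28-5p had means of 1036 in pregnant endometrium, 599 in pregnant UF, 768 in embryos and 1002 in YS fluid. The part of the scaling in these correlations was not tested.

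Within the 9 endometrial libraries the order was another one. For eca-miR-199a-3p it began, among 122 miRNAs, with eca-miR-369-3p (r = 0.899), eca-miR-487b (0.875), eca-miR-379 (0.867), eca-miR-196b (0.843) and eca-miR-195 (0.792), and eca-miR-143 came at place 13 (0.640). For eca-miR-214 it began with eca-miR-487b (0.857), eca-miR-379 (0.774), eca-miR-100 (0.767), eca-miR-676 (0.753) and eca-miR-127 (0.744), and eca-miR-143 came at place 37 (0.379). The pregnant endometrium of mare 5 held 34245 CPM of eca-miR-143, against 6681 to 11483 CPM in the other 4, while its 10740 CPM of eca-miR-199a-3p stayed below the highest cyclic library. The other stromal miRNA, eca-miR-145, was too scarce for this ranking and had r = 0.787 with eca-miR-199a-3p and 0.706 with eca-miR-214. eca-miR-199a-3p and eca-miR-214 had r = 0.795 within the endometrium.

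**Figure D5:**
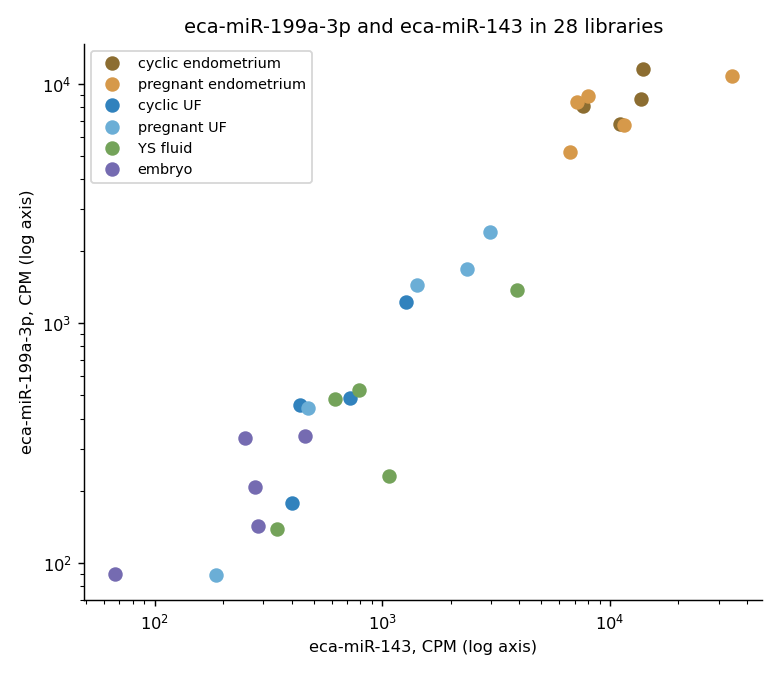
eca-miR-199a-3p against eca-miR-143 in the 28 libraries (both log axes, CPM), coloured by sample group. The 9 endometrial libraries form the upper right group, at 5181 CPM of eca-miR-199a-3p or more, and the pregnant endometrium of mare 5 stands to the right of them at 34245 CPM of eca-miR-143.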

How the data were processed

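Adapters were cut by the authors with cutadapt 1.11 and short reads were dropped. Reads were counted with miRPro on the horse miRNAs of miRBase and the build EquCab2.0, and the authors deposited the raw counts, not normalized. How reads matching several miRNAs were counted is not given in the sources used here. Known and predicted miRNAs were joined, and CPM used their total. A separate fit in edgeR 4.0.16 (R 4.3.3) was made for the libraries of each comparison: at least 1 CPM in as many libraries as the smaller group, TMM, quasi-likelihood test, Benjamini-Hochberg adjustment over all miRNAs tested, FDR up to 0.05 and at least a 2-fold change. Pregnant and cyclic samples were compared with the mare as block, since the study paired cycles of the same mares. Tissues and fluids were compared without a block, although they came from the same mares, and the block was an alternative there. Mare 5, without a cyclic library here, entered normalization but not the contrast. Deviations of same-mare samples correlated on average at 0.216 in endometrium and 0.315 in UF, against -0.055 and -0.077 for other mares. Expected reads and counting intervals used pooled reads and 95% confidence. Ratios used 0.5 added reads. Likeness used TMM over the libraries, with a prior count of 2.

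Named were the members, the stromal list and the 5 miRNAs most like eca-miR-199a-3p and eca-miR-214. Members and lists were chosen with earlier results of these data known. Alternatives were DESeq2 1.42.0, edgeR's likelihood ratio test, RLE factors, no filter, filterByExpr (minimum count 10), the block added or removed, 28 libraries in 1 fit, identical counts once, the FDR alone, 1 read added to ratios, and each mare left out. Added after seeing the data were library totals alone, eca-miR-199b-3p left out, and eca-miR-199a-3p alone in ratios. Methods were also run on simulated counts with the same dispersion for all miRNAs and no mare effect. Only miRNAs above a minimum of reads were changed there, so this does not test the scarce members. Other steps ran in Python 3.11.15 (scipy 1.17.1, numpy 2.4.6, pandas 2.3.3). Mature sequences were not used here.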

Additional observations from a re-analysis of the deposited data

Results flagged for a closer look

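A single library stood far from the others of its group, by Dixon's criterion, in 2 of 27 groups of members and samples, with eca-miR-199a-3p and eca-miR-199b-3p counted apart. eca-miR-199b-5p reached 27.6 CPM in the embryo of mare 3 and 0 in the other 4 embryos, and eca-miR-214 reached 68.8 CPM in the YS fluid of mare 5 and 0 in the other 4. Each of these values was 1 read.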

How the results depend on the processing

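Of the 609 fold changes of members under an alternative, 577 kept their direction and side of the threshold, 7 lost their call and 25 turned direction, and the cause was not tested. All 25 belonged to uncalled differences between pregnant and cyclic samples or to the interaction. In endometrium, eca-miR-199a-3p, eca-miR-199a-5p, eca-miR-199b-3p, eca-miR-199b-5p and eca-miR-214 stood at log2 fold changes of 0.42, 0.39, 0.42, 0.30 and 0.20 with 28 libraries in 1 fit, and without the replicate block the first 4 stood at 0.16, 0.19, 0.16 and 0.072. With each mare left out the 5 ranged from -0.29 to 0.21, -0.51 to 0.39, -0.29 to 0.21, -0.55 to 0.11 and -0.37 to 0.24, each turning without mare 2. In UF, eca-miR-214 stood at 0.20 with 28 libraries and 0.29 without the block, and ranged from -1.54 to 0.51 with a mare left out, turning without mare 1 or 2. There eca-miR-199a-3p ranged from -0.21 to 1.22 and eca-miR-199b-3p from -0.21 to 1.202, both turning without mare 4. The interaction of eca-miR-214 stood at 0.078 with RLE and 0.30 without the block and ranged from -1.38 to 0.98, and that of eca-miR-199a-5p from -5.06 to 0.083.

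Between YS fluid and pregnant UF the members called went from 2 to 0 with library totals and to 1 with eca-miR-199b-3p left out. Adding or removing the mare as a block changed no call of a member.

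Calls over all miRNAs moved more. With filterByExpr, which tests fewer miRNAs, they went from 13 to 3 and from 15 to 0 between pregnant and cyclic endometrium and UF, from 256 to 140 and from 121 to 75 for embryo and pregnant UF against endometrium, from 212 to 101 and from 165 to 90 for embryo and YS fluid against UF, and from 91 to 40 for embryo against YS fluid. Without the replicate block the calls between pregnant and cyclic samples were 0 in endometrium, in UF and in the interaction, which had 7. With 28 libraries in 1 fit they were 0 and 7, with identical counts once 8 and 8, and with the likelihood ratio test 6 in UF. With the mare as replicate block embryo against YS fluid had 54. Leaving out a mare gave 2 to 26 calls in UF (26 without mare 1, 2 without mare 3), 0 to 20 in the interaction and 40 to 74 for embryo against YS fluid.

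With 1 read added, 6 ratio tests passed (log2 differences of -1.59, -2.14, -2.25, 2.78, 3.71 and 3.48), each with embryo or YS fluid. Ratio differences that turned direction, none of them called, were -0.099 and 0.23 with 1 read added and -0.040, -0.11 and -0.026 with the pairing of mares swapped. With a mare left out, 3p over 5p ranged from -0.18 to 0.31 in endometrium and from -0.69 to 0.42 in UF between pregnant and cyclic mares, and eca-miR-214 over 3p from -0.071 to 0.25 in endometrium. Between UF and endometrium, eca-miR-214 over 3p ranged from -0.67 to 0.048 in pregnant mares, and eca-miR-199b-5p over eca-miR-199a-5p from -1.11 to 0.41 in cyclic mares. Reads limit eca-miR-199a-5p and eca-miR-214 outside endometrium, where a group held at most 7 of either.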
